A study of Homo sapiens with 4 samples.

Results

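CD274 encodes PD-L1, the tumour cell ligand that engages PD-1 on T cells. It was examined together with 9 other genes whose products face immune cells or support those that do, on arrays of breast cancer cells carrying a short hairpin RNA against YTHDF3. The genes were PDCD1LG2, CD276, CD80, CMTM6, B2M, CD47, PVR, MICA and MICB, taken as a list of symbols, and the list was drawn up with results of these arrays known, CD274 having been chosen by its lower log2 expression in the shYTHDF3 arrays. All 10 genes had at least 1 named probe set, 17 in all, among 14884 named genes. Of the 10, 9 passed the filter on low values, and CD80 did not.

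There were 4 Affymetrix arrays of MDA-MB-231Br, a cell line derived from human breast cancer line MDA-MB-231 (the sample titles name the parent line). Cells on 2 arrays had received lentivirus with the hairpin shYTHDF3, and cells on the other 2 arrays lentivirus with the control hairpin shControl. Both groups had been transduced and put through puromycin selection. The labels name 1 hairpin for each group, so an effect of the hairpin on other transcripts and an effect of less YTHDF3 cannot be told apart. YTHDF3 is a cytoplasmic reader of N6-methyladenosine on RNA; its own level was not analysed here, so the knockdown has no check from these values. Nothing in the labels says that the 2 arrays of a group came from separate cultures, and the spread between them may be technical. Values are log2 expression after RMA (background correction, normalization between arrays and probe summary), with array medians from 3.20 to 3.22, and a difference of 1 is a 2-fold change. Levels of different genes come from different probes and are not compared with each other.

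Tumour cells meet T cells, natural killer (NK) cells and macrophages through surface proteins that restrain or trigger them. PD-L1 is the best known of the restraining ones. Its gene is induced by interferon gamma through the kinases JAK1 and JAK2 and the factor IRF1, and many other signals feed into the same promoter. At the membrane the protein is bound and shielded from lysosomal degradation by CMTM6. The arrays measured transcripts only, so no statement below is about PD-L1 or any other protein.

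CD274 was the member that fell. Its log2 expression was 7.18 and 7.44 in the shYTHDF3 arrays, against 8.36 and 8.32 in the shControl arrays. Both shYTHDF3 arrays lay well below both shControl arrays, and the gap between the groups was wider than the gap within either of them. The means were 7.31 ± 0.18 and 8.34 ± 0.03 (SD, n = 2 each), a log2 difference of -1.03 (SE 0.14, 95% interval -1.37 to -0.70) or 2.05-fold. In the 4 possible pairs of a shYTHDF3 with a shControl array the difference ran from -1.19 to -0.88. Since this difference led to the choice of the gene, it is given as a description. The probe set (17083357) was the only 1 named CD274. In RNA from whole cultures, fewer cells with the transcript and less of it per cell cannot be told apart.

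The promoter of CD274 is shown because it is the start of the transcript that fell, and that of B2M, a second interferon-inducible gene of the list, stands beside it. B2M did not pass the test on its brighter probe set. Any part of these sequences in the differences of either gene was not tested. Both are from RefSeq on GRCh38.p14 and run 5′ to 3′ over 250 bases before and 50 bases from the annotated start, on the plus strand at chr9:5450292-5450591 for CD274 and at chr15:44711267-44711566 for B2M. Capitals mark matches to the motifs searched.
CD274: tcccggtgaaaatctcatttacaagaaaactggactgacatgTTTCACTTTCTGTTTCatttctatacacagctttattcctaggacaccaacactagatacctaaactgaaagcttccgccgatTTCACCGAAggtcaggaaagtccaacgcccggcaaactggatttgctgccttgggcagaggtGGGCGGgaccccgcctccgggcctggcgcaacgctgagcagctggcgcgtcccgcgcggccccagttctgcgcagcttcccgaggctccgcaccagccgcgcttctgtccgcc
B2M: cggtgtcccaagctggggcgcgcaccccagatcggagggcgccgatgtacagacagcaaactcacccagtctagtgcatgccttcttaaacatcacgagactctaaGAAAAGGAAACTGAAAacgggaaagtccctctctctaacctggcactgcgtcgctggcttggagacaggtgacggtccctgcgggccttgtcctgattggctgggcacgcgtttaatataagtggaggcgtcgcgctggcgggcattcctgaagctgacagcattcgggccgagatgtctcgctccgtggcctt

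Promoters of 9 of the 10 genes could be matched, with 10 windows of 300 bases between them because CD276 has a pair of annotated starts. The interferon regulatory factor element, a pair of GAAA half-sites with 2 bases of any kind between them, was searched on both strands like every motif here. It occurred in CD274 and B2M and in 3.57% of all 35116 promoter windows. Each of these promoters held 2 overlapping matches, from positions -208 and -202 relative to the start in CD274 (on the minus strand) and from -144 and -138 in B2M. The gamma-activated site TTCNNNGAA occurred in CD274 alone among the members and in 7.66% of all windows. The GC box GGGCGG was present in 6 of the 9 genes, namely CD274, CD276, CD47, MICA, MICB and CMTM6, and in 44.95% of all windows. GACGTG, the core bound by hypoxia-inducible factors, was found in CD47 only and in 7.81% of all windows. The AP-1 site TGANTCA, the E-box CACGTG, the core TGATGNAA of elements bound by CHOP and ATF4, and the heat shock element (GAA, TTC and GAA, each 2 bases apart) were in none of the 10 windows, against 7.71%, 7.26%, 3.62% and 0.49% of all windows. Such matches are letters in a window, not measured binding.

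**Figure D1:**
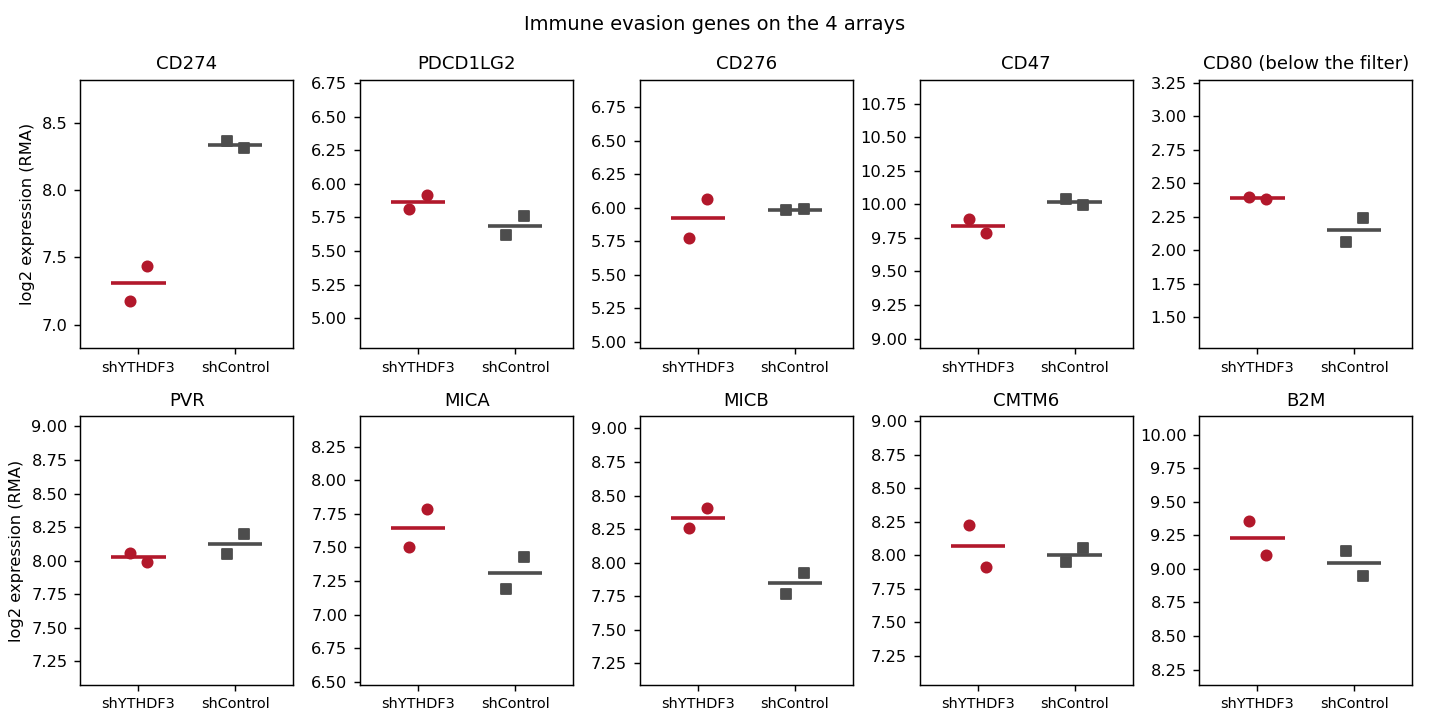
Log2 expression (RMA) of the 10 genes on the 4 arrays, a panel per gene, shYTHDF3 arrays as circles on the left and shControl arrays as squares on the right, with group means as lines. Every axis spans the same length on the log2 scale but is centred on its own gene. CD274 has the widest gap between groups, with means of 7.31 and 8.34.

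The second ligand of PD-1 did not share the fall. PDCD1LG2, which encodes PD-L2 and lies next to CD274, stood at 5.82 and 5.91 in the shYTHDF3 arrays, against 5.62 and 5.76 in the shControl arrays. The shYTHDF3 arrays were the higher ones, without overlap, by 0.18 (SE 0.13, 95% interval -0.13 to 0.49). Its difference exceeded that of CD274 by 1.21 on the log2 scale, and by 1.04 to 1.39 in the 4 array pairs.

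Of the other B7 ligands, CD276 was tested and did not pass, and CD80 was not tested. CD276, or B7-H3, a B7 family protein found on many carcinomas, stood at 5.78 and 6.07 in the shYTHDF3 arrays, against 5.98 and 5.99 in the shControl arrays. The shYTHDF3 arrays lay on either side of the shControl arrays, and the difference was -0.06 (SE 0.15, 95% interval -0.41 to 0.28). CD80, a costimulatory ligand of CD28 and CTLA-4 typical of antigen-presenting cells, was at 2.39 and 2.39 in the shYTHDF3 arrays, against 2.06 and 2.24 in the shControl arrays. All 4 values were below the filter of 2.54, where RMA compresses weak signals, so CD80 was not tested.

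CMTM6, the stabiliser of PD-L1, did not share the fall of CD274 at the transcript level. It stood at 8.23 and 7.91 in the shYTHDF3 arrays, against 7.95 and 8.05 in the shControl arrays. The shYTHDF3 arrays lay on either side of both shControl arrays. The difference was 0.07 (SE 0.15, 95% interval -0.29 to 0.42), and it changed sign when shYTHDF3 replicate 1 was left out (-0.09). In the 4 array pairs the CMTM6 difference exceeded that of CD274 by 0.73 to 1.47.

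B2M encodes beta-2 microglobulin, the light chain that every MHC class I molecule needs to reach the surface. Its brighter probe set read 9.36 and 9.10 in the shYTHDF3 arrays, against 9.14 and 8.95 in the shControl arrays. The groups overlapped, with a difference of 0.19 (SE 0.15, 95% interval -0.16 to 0.54). A second, dimmer probe set with the same transcript accession disagreed in size. It read 5.16 and 4.82 in the shYTHDF3 arrays, against 3.94 and 4.39 in the shControl arrays, a difference of 0.82 without overlap. Why the pair differ was not tested.

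CD47 is the signal by which cells restrain phagocytosis through SIRPA on macrophages. It stood at 9.89 and 9.78 in the shYTHDF3 arrays, against 10.04 and 10.00 in the shControl arrays. The shYTHDF3 arrays were lower without overlap, but the differences in the 4 array pairs, from -0.26 to -0.11, were far smaller than those of CD274. The fitted difference was -0.18 (SE 0.13, 95% interval -0.48 to 0.12).

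Of the 3 ligands of NK cell receptors 0 passed with limma, where 0.753% of all tested genes passed. PVR, the poliovirus receptor, binds the inhibitory receptor TIGIT and the activating receptor DNAM-1. It read 8.06 and 7.99 in the shYTHDF3 arrays, against 8.05 and 8.20 in the shControl arrays. These overlapped, with a difference of -0.10 (SE 0.13, 95% interval -0.41 to 0.21).

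MICA and MICB are stress-induced ligands of the activating receptor NKG2D. MICA read 7.50 and 7.78 in the shYTHDF3 arrays, against 7.19 and 7.43 in the shControl arrays. The shYTHDF3 arrays were higher, by 0.33 (SE 0.16, 95% interval -0.04 to 0.70), although the lower of them exceeded the higher shControl array by only 0.07. MICB, on the probe set chosen for the fit, read 8.26 and 8.41 in the shYTHDF3 arrays, against 7.77 and 7.93 in the shControl arrays. The groups did not overlap, with a difference of 0.49 (SE 0.14, 95% interval 0.16 to 0.81) or 1.40-fold, but MICB did not pass the threshold over all genes.

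MICB had 7 named probe sets, of which 2 held identical values, so there were at most 6 distinct measurements. All shYTHDF3 values of these probe sets, from 8.16 to 8.42, lay above all shControl values, from 7.68 to 7.93, and the differences ran from 0.49 to 0.56. The probe sets carry the same transcript accession, so they do not count as replicates. MICA and MICB are close relatives, and whether their probe sets share targets was not tested. Their promoters are shown as those of the members with the most positive differences on the brightest probe set of each gene. The dimmer B2M probe set had a larger difference. The MICA and MICB sequences are from RefSeq on GRCh38.p14, plus strand, at chr6:31403345-31403644 for MICA and chr6:31497895-31498194 for MICB. Capitals mark the GC box on the minus strand, the only motif of those searched that either promoter held.
MICA: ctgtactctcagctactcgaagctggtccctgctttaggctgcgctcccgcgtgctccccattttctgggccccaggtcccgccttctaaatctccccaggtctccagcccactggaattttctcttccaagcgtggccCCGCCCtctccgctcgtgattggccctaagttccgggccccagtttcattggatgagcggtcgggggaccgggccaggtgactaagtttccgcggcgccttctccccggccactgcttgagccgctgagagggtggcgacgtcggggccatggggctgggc
MICB: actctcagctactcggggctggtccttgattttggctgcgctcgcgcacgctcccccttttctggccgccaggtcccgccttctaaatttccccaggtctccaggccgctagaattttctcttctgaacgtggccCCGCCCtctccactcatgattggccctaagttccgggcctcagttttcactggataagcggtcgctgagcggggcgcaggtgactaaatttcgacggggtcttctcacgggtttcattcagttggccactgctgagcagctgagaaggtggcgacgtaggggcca

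Aligned without gaps at the best of the offsets tried, 4 bases, the MICA and MICB promoters were identical at 196 of 296 bases (66.2%). CD274 and MICB, at their own best offset, were identical at 92 of 286 bases (32.2%). Choosing the best offset raises both figures, while leaving out gaps can lower them. MICA and MICB share a stretch near the end of the window that the 4-base offset does not line up. The 66.2% may therefore understate their likeness.

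**Figure D2:**
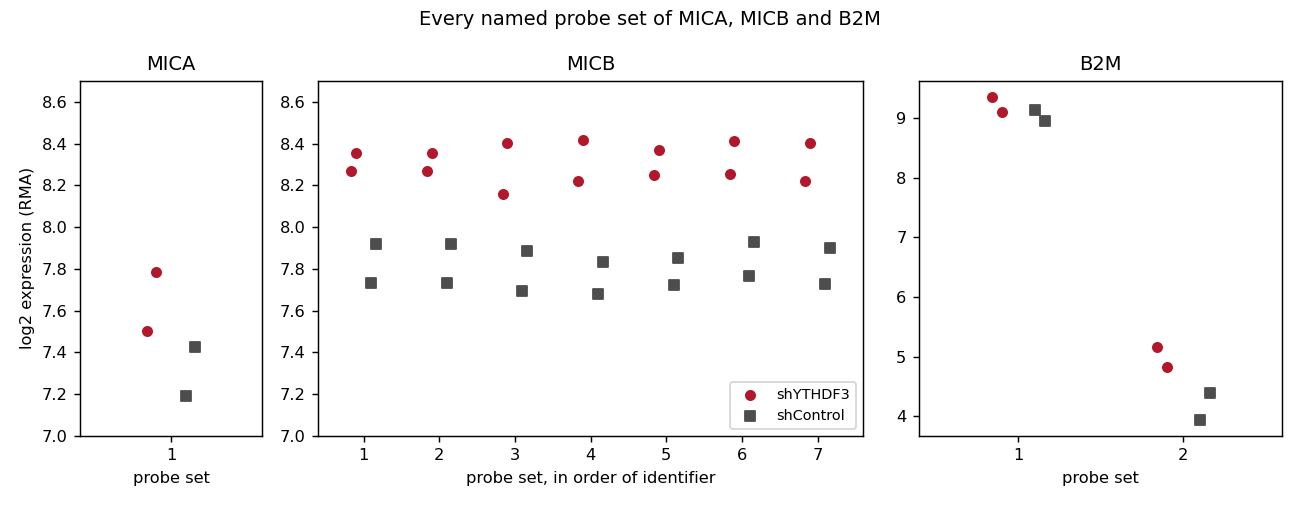
Log2 expression (RMA) of every named probe set of MICA (1), MICB (7) and B2M (2), shYTHDF3 arrays as circles on the left and shControl arrays as squares on the right of each position. The MICB probe sets repeat the same gap between groups, from 0.49 to 0.56, while the B2M probe sets differ by 0.19 and 0.82.

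Across the list, limma with Benjamini-Hochberg adjustment over 12755 genes called 1 of the 9 tested members, CD274, at an adjusted p under 0.05. It called 96 genes in all (0.753%), of which 85 were lower in the shYTHDF3 arrays (0.666%) and 11 higher (0.0862%). Because CD274 was chosen for its difference, nothing is read from that count. The groups did not overlap for 5 of the 9 members, 2 lower (CD274 and CD47) and 3 higher (PDCD1LG2, MICA and MICB), where 45.5% of all tested genes did not overlap, 22.8% lower and 22.6% higher. The members' median difference was 0.07, beside 0.004 over all tested genes. The differences of the other 8 tested members ran from -0.18 for CD47 to 0.49 for MICB, and 0 of them passed.

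**Figure D3:**
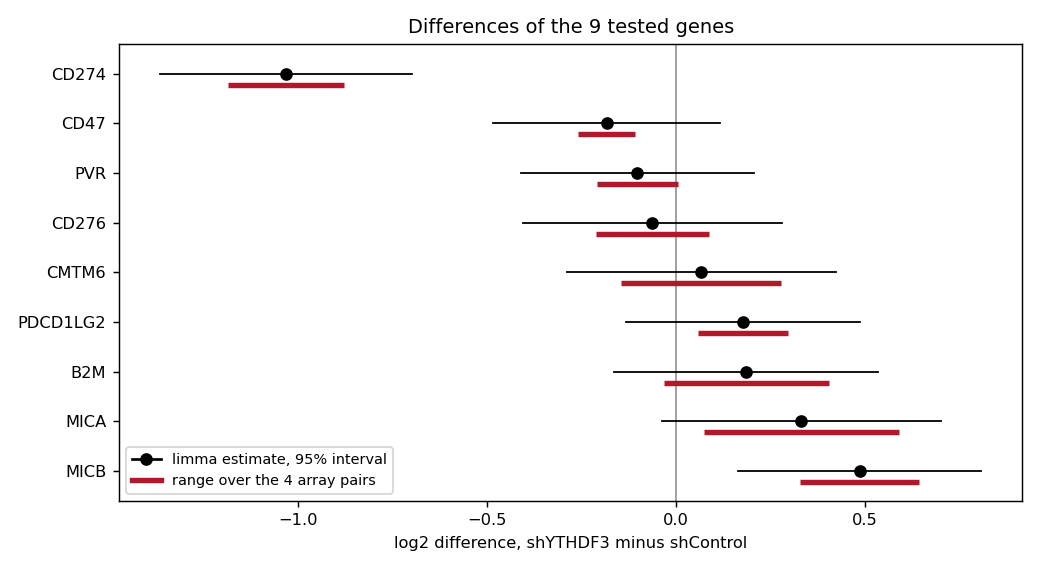
Log2 difference, shYTHDF3 minus shControl, of the 9 tested genes, with the limma estimate and its 95% interval in black and the range over the 4 array pairs as a thick line beneath. CD274 stands at -1.03, and the others lie between -0.18 and 0.49.

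No tested gene beside CD274 on chromosome 9 passed the threshold. Of the 12 protein-coding genes nearest in RefSeq order, 6 on each side, 7 were tested and 0 passed with limma. Of all tested genes 0.753% passed. The neighbours were added to the study of CD274 after its values had been seen. JAK2, the interferon receptor kinase, had a log2 difference of -0.06 (95% interval -0.36 to 0.25), and RIC1 and ERMP1, beyond PDCD1LG2, had -0.08 and -0.12. RANBP6, the farthest on that side, read 5.95 and 5.87 in the shYTHDF3 arrays, against 5.24 and 5.30 in the shControl arrays. That difference of 0.64 was in the opposite direction to CD274 and did not pass (adjusted p = 0.083 from limma). INSL4 and RLN1 were near the filter value, at 0.09 and -0.08, and the other 5 were below the filter or not analysed here.

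**Figure D4:**
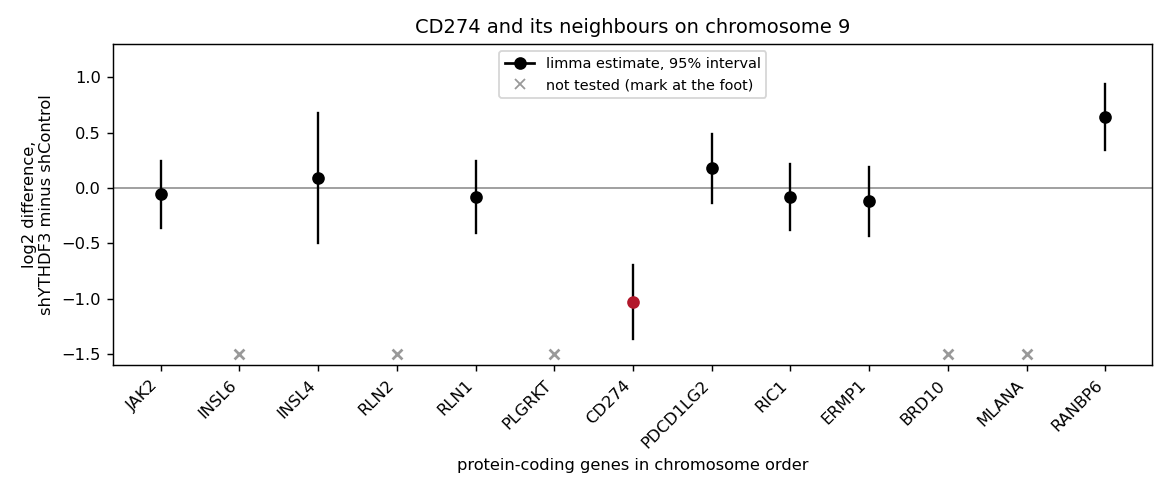
Log2 difference, shYTHDF3 minus shControl, with its 95% interval for CD274 and the protein-coding genes on either side of it, in chromosome order and not to scale. CD274, at -1.03, has the lowest difference of the 8 genes tested, and its immediate neighbour PDCD1LG2 is at 0.18.

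The interferon and NF-kB route that induces CD274 held no gene past the threshold. Of 24 listed genes 17 were tested, and 0 were called lower and 0 higher with limma, where 0.666% and 0.0862% of all tested genes were. At an unadjusted p under 0.05 there were 0 lower and 2 higher, where 8.48% of all tested genes were lower and 6.24% higher. The list's median difference was 0.03. JAK1 and IRF1 had differences of 0.01 and 0.06. SOCS3, a feedback inhibitor of cytokine receptors, read 6.77 and 6.59 in the shYTHDF3 arrays, against 5.72 and 6.06 in the shControl arrays, which is 0.79 apart without passing (adjusted p = 0.092 from limma, and 0.029 with an intensity trend, a fit that lets the variance follow the level, where it passed). NFKB1 and RELA, subunits of NF-kB, stood at 0.32 and -0.27, and IFNGR1, the ligand-binding chain of the interferon gamma receptor, at -0.29.

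Other factors reported to act on CD274 transcription included genes that fell. Of 20 listed, 17 were tested, 2 were called lower and 0 higher with limma, and 15 did not pass. Here 0.666% of all tested genes were called lower. DDIT3, the stress factor CHOP, read 3.28 and 3.70 in the shYTHDF3 arrays, against 6.45 and 6.68 in the shControl arrays, a fall of 3.07 on the log2 scale. XBP1, a factor of the unfolded protein response, read 7.19 and 7.20 in the shYTHDF3 arrays, against 8.31 and 8.06 in the shControl arrays, which is 0.99 lower (adjusted p = 0.032 from limma). MYC and ATF3 had differences of -0.63 and -1.33 and did not pass, with adjusted p-values of 0.12 and 0.093 from limma. Both passed with the intensity trend (adjusted p = 0.018 and 0.033 from limma). EGFR, YAP1 and TEAD1 stood at -0.16, 0.19 and 0.08. The list's median was -0.16, beside 0.004 over all genes. It holds genes of the stress response that were known to be lower in these arrays when the list was made, so its direction is not independent evidence.

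Genes acting on PD-L1 protein after synthesis did not pass. Of 22 listed 15 were tested, and 0 were called in either direction with limma, where 0.753% of all tested genes were. At an unadjusted p under 0.05, 1 was higher and 0 lower, where 6.24% of all tested genes were higher and 8.48% lower. CMTM4, a relative of CMTM6 that can stand in for it, read 7.23 and 6.94 in the shYTHDF3 arrays, against 6.76 and 6.63 in the shControl arrays. The shYTHDF3 arrays were higher, by 0.39, with an adjusted p of 0.30 from limma. ADAM17, a sheddase, and FBXO38, a ubiquitin ligase adaptor, stood at -0.23 and -0.20, and the deubiquitinase USP22 at 0.18. Among the 7 other CMTM genes, all of them tested, 0 passed with limma, and the median difference was 0.003. CMTM7, CMTM5 and CMTM8 had differences of -0.31, -0.13 and 0.10.

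Around the remaining members the counts past the threshold were also 0, where 0.753% of all tested genes passed, so lists this short say little. The MHC class I list beside B2M had 7 of 22 genes tested, with 0 called by limma, 1 lower at an unadjusted p under 0.05 and a median of 0.01. CALR, the chaperone calreticulin, read 12.15 and 12.01 in the shYTHDF3 arrays, against 12.50 and 12.56 in the shControl arrays, a difference of -0.46 (adjusted p = 0.18 from limma). ERAP1, the trimming peptidase, and CANX, calnexin, stood at -0.33 and -0.14. Beside MICA and MICB, 3 of 6 further NKG2D ligands were tested. ULBP3, RAET1E and ULBP2 had differences of 0.27, 0.30 and 0.18, all positive like those of MICA and MICB. Of all tested genes 49.2% had a negative difference. The groups overlapped for RAET1E, and the 95% intervals of all 3 ligands included 0. With limma 0 of them passed, and 0 reached an unadjusted p under 0.05.

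The list around CD47 had 0 genes called by limma, where 0.753% of all tested genes were called. All 8 genes were tested, and 3 were lower at an unadjusted p under 0.05, where 8.48% of all tested genes were. The median difference was -0.37, beside 0.004 over all genes, and 7 of the 8 differences were negative, where 49.2% of all tested genes had a negative one. This list too was made with earlier results of these arrays known, so its direction is not independent evidence. CD24, another restraint on phagocytosis, read 5.06 and 5.29 in the shYTHDF3 arrays, against 6.37 and 5.91 in the shControl arrays. Its difference was -0.97 (adjusted p = 0.073 from limma), and it passed with the filter at the 50th percentile and with an intensity trend (adjusted p = 0.0496 and 0.025 from limma). LRP1, a receptor for calreticulin on phagocytes, and THBS1, thrombospondin and a ligand of CD47, stood at -0.39 and -0.34, and CALR is shared with the MHC class I list. CALR passed with an intensity trend (adjusted p = 0.027 from limma).

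Further surface ligands gave 0 calls with limma, where 0.753% of all tested genes were called. At an unadjusted p under 0.05, 8.48% of all tested genes were lower and 6.24% higher. Of 16 other B7 and butyrophilin genes 8 were tested, with a median of 0.07 and 1 higher at an unadjusted p under 0.05. NCR3LG1, or B7-H6, a ligand of the NK receptor NKp30, read 3.19 and 3.08 in the shYTHDF3 arrays, against 2.76 and 2.52 in the shControl arrays, a difference of 0.50 near the filter value. CD86, VTCN1 and BTNL8 stood at -0.28, 0.15 and 0.18. Of 8 nectins and partners of PVR 7 were tested, and at an unadjusted p under 0.05 1 was lower and 1 higher. NECTIN1, NECTIN2 and NECTIN3 stood at 0.38, -0.24 and -0.32. CD96, whose product is a receptor of PVR on lymphocytes, read 7.77 and 7.74 in the shYTHDF3 arrays, against 8.38 and 8.23 in the shControl arrays (adjusted p = 0.13 from limma, and 0.028 with an intensity trend, where it passed). Of 27 other inhibitory or costimulatory ligands only 6 were tested, with 0 at an unadjusted p under 0.05. ICAM1, SIGLEC15, CD58 and CD70 stood at -0.31, -0.16, -0.10 and -0.07.

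**Figure D5:**
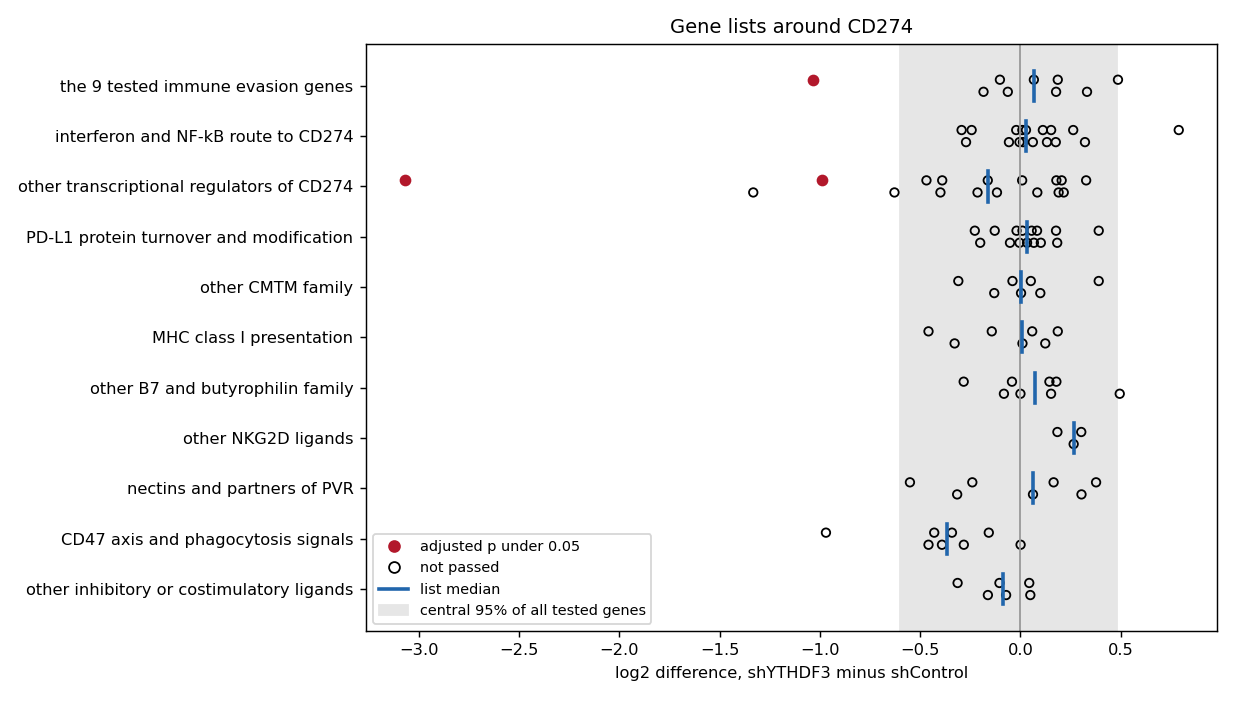
Log2 difference, shYTHDF3 minus shControl, of each tested gene (points) by list, with list medians as bars and the central 95% of all 12755 tested genes shaded (-0.60 to 0.48). The marker lists are not drawn. Among the genes drawn, the filled points, CD274, DDIT3 and XBP1, passed an adjusted p under 0.05.

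The 5 genes whose 4 values, centred on their own mean, lay nearest to those of CD274 were BTBD8, LINC01000, CXCL2, GOLGA4 and KRTAP2-3. Their root mean square distances from CD274 over the 4 arrays were 0.050, 0.055, 0.061, 0.072 and 0.073 on the log2 scale. With 4 arrays in a pair of groups, such likeness says little more than that the differences were of similar size, from -1.06 for BTBD8 to -0.92 for GOLGA4. CXCL2, a neutrophil chemokine, read 6.76 and 6.91 in the shYTHDF3 arrays, against 7.80 and 7.76 in the shControl arrays.

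Markers of the cell line were checked as well. Of 8 tested genes listed as basal and mesenchymal markers of the line only FN1, fibronectin, was called by limma, with a log2 difference of -1.50. Of all tested genes 0.753% were called. VIM, AXL and CD44 had differences of 0.05, -0.18 and 0.17, and S100A4 had 0.31. KRT18 is an epithelial keratin that was on this list as a marker of the line, not as a mesenchymal gene. It read 8.98 and 8.93 in the shYTHDF3 arrays, against 8.26 and 8.64 in the shControl arrays. That difference of 0.50 did not pass (adjusted p = 0.22 from limma). The groups did not overlap for 7 of these 8 markers, where 45.5% of all tested genes did not overlap. Any part of these marker differences in the values of the members was not tested. ESR1, the oestrogen receptor, was at 2.94 and 2.88 in the shYTHDF3 arrays, against 2.90 and 2.78 in the shControl arrays. PGR, the progesterone receptor, was at 2.76 and 2.60 in the shYTHDF3 arrays, against 2.74 and 2.57 in the shControl arrays. Both lay below the array medians on every array, and the line is known to lack both receptors. They were named after their values were seen, and other luminal and epithelial markers on their list stood higher. The median level of the tested genes on that list was 4.62, above the array medians. EPCAM, KRT19 and CLDN7 had shControl means of 6.70, 6.77 and 7.07. Levels of different genes come from different probes, so a level beside the array median does not type the cells. Of 11 tested luminal and epithelial markers 0 passed limma's threshold, and 1 was lower at an unadjusted p under 0.05, where 8.48% of all tested genes were. CLDN7, CLDN4, KRT19 and FOXA1 stood at -0.48, -0.42, -0.40 and 0.27. Of 21 leukocyte and stromal markers 8 were tested. With limma 0 passed and 1 was lower at an unadjusted p under 0.05, with VWF, CD8A, CD14 and CD68 at -0.34, 0.31, -0.20 and -0.17.

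The call on CD274 was lost when any 1 array was left out, with differences from -1.16 to -0.90.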

How the data were processed

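Total RNA was extracted with Trizol and hybridised as biotin-labelled cRNA to Affymetrix arrays, per the labels' protocols. The deposited values are log2 expression per probe set and array. The authors used RMA, per the submitters' processing notes; version, settings and genome build are not given. RMA removes array-wide shifts and compresses weak signals. Precision is limited by having 4 arrays.

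The platform annotation gave 1 gene symbol for 16098 of 53617 probe sets, several for 0 and none for 37519. A gene's brightest probe set (highest mean) stood for it, and genes were tested from the 30th percentile of mean level upwards (2.54). Groups came from the sample titles. The model was limma 3.58.1 under R 4.3.3 (lmFit, eBayes, 2-sided, without covariates) on 12755 genes, adjusted by Benjamini-Hochberg at a threshold of 0.05, and was tested on simulated data. A permutation over these arrays could reach no 2-sided p below 0.333, so each call borrows its variance from other genes through limma.

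The members, lists, motifs and alternatives were chosen with earlier results of these data known. Named genes were the members, YTHDF3 (without values), list genes past the threshold or among the 4 of smallest p in their list, and the 5 nearest to CD274. JAK1, IRF1, EGFR, YAP1, TEAD1, VIM, AXL, ESR1, PGR and the chromosome 9 neighbours were named after their values were seen. Promoters are RefSeq's, in the table for 27305 gene symbols. Alternatives varied the filter, probe set rule, normalization, variance model and replicate block, and left out each array.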

Additional observations from a re-analysis of the deposited data

How the results depend on the processing

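The alternatives that used all 4 arrays without a block left CD274 past the threshold, but they refit the values by which it was chosen and say nothing of its stability. Nothing in the labels ties replicate numbers to a shared day, and same-numbered arrays deviated together at a correlation of only 0.043. With the replicate block the CD274 difference was -1.03 with an adjusted p of 0.15 from limma, the members past the threshold numbered 0 and the genes 11. Leaving out 1 array gave CD274 differences from -1.16 to -0.90, 0 members past the threshold each time and from 0 to 36 genes, against 96 with all arrays. Omitting shControl replicate 1 or 2 left 0 genes (1370 and 1392 at an unadjusted p under 0.05), omitting shYTHDF3 replicate 1 left 36 and omitting shYTHDF3 replicate 2 left 35. A lone array is assumed to vary like the other group. Genes past the threshold numbered 167 with the filter at the 50th percentile and 375 with an intensity trend, of which 72.5% were lower, against 88.5% of the 96.

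Of 104 values of the 8 other tested members under the alternatives, 102 kept their direction, and 0 passed. The exceptions came without shYTHDF3 replicate 1. With 1 array left out, CD276 ran from -0.21 to 0.083 and CMTM6 from -0.092 to 0.23. For the 53 other named genes 3 of 682 values changed sign: CD86 ran from -0.66 to 0.092, SIGLEC15 from -0.37 to 0.046 and BTNL8 from -0.018 to 0.38. In 33 values a call was lost. In 11 one was gained, with an intensity trend for SOCS3, ATF3, MYC, CALR, CD96, CD24 and LINC01000, with the filter at the 50th percentile for CD24 and LINC01000, with median centring for LINC01000, and without shYTHDF3 replicate 1 for ATF3. The causes were not tested.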
